A study of Mus musculus with 12 samples.

Results

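Arid4b, Brwd3, Chd1 and Ehmt2 are genes of chromatin regulation: a reader and co-repressor subunit, a bromodomain protein, an ATP-dependent remodeller and a histone methyltransferase. They were chosen by name, and every peak that the table of age-regulated N6-methyladenosine (m6A) peaks lists under one of these names was taken. Each name had 1 peak, so 4 of the 529 listed peaks are described. The libraries came from the hippocampus of male C57BL/6 mice aged 3 months (young) or 20 months (aged), with RNA prepared from single hippocampi, no other genotype or treatment in the labels, and 3 mice per age kept after a qPCR pre-check. Methylated RNA immunoprecipitation sequencing (MeRIP-seq) pulls fragments of poly(A) RNA down with an antibody to m6A and sequences them, so the values are immunoprecipitate (IP) reads per peak. The input libraries (3 per age) were not analysed here, so IP reads here mix how much of a transcript was methylated with how much of it there was and how well each IP worked. In bulk tissue, fewer cells of a type and less RNA per cell cannot be told apart, and since only selected peaks were listed the tissue was not checked against marker genes.

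m6A is placed on nascent mRNA by a complex built around METTL3 and METTL14, at adenosines within a short motif called DRACH, and proteins that bind it affect the splicing, export, translation and decay of the transcript. It is common in long internal exons and near stop codons. Chromatin proteins of the kind encoded by these genes set which genes a neuron can use: readers bind modified histone tails, remodellers move nucleosomes with the energy of ATP, and methyltransferases write the marks.

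The position of one peak went against its name. The peak listed under Chd1 lies at chr17:17387159-17387358 (mm10, plus strand), inside exon 8 of the 10 exons of Riok2 in GENCODE M21, and RefSeq places an exon of Riok2 and of no other gene there. The annotation has Chd1 itself at chr17:15704967-15772610, which is 1614549 bases away. Of the 549 pairs of peak and gene name whose symbol GENCODE M21 holds, 548 had the peak inside the named gene, and this was the 1 pair that did not. Its values are given below as those of the peak named Chd1, and they are not a measurement of Chd1. Riok2 encodes an atypical kinase that acts in the maturation of the small ribosomal subunit and is not a chromatin protein.

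The peak sequences are shown because 3 of the 4 peaks lie wholly in coding sequence and hold many matches to DRACH. The motif was searched as 5 letters, A, G or T, then A or G, then A, then C, then A, C or T, on the annotated strand, with overlapping matches counted and printed in capitals. A match is a description of the letters and not a measured site.

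The Arid4b peak (chr13:14186897-14187138, plus strand) covers 242 bases of exon 20 of the 24 exons of transcript Arid4b-203. This exon is 1215 bases long, the 2nd longest of the transcript, and the peak spans codons 736 to 816 of 1314. ARID4B binds the SIN3 co-repressor complex, which carries histone deacetylases, and holds Tudor, chromo barrel and ARID domains.
Arid4b peak: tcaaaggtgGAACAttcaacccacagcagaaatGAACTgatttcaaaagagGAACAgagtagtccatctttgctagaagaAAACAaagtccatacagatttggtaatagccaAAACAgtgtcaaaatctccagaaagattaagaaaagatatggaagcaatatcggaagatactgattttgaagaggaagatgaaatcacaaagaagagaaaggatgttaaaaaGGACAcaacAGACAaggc

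The peak named Chd1 covers 200 bases of the Riok2 coding sequence, codons 323 to 389 of 547, and holds a GGAC match and a TGACT match 6 bases apart.
Peak named Chd1: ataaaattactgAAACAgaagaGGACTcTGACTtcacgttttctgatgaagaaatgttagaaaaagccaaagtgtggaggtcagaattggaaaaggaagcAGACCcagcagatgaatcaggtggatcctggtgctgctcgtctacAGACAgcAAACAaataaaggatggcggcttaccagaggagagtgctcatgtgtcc

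The Brwd3 peak (chrX:108743405-108743608, minus strand) covers 204 bases of exon 41, the last of Brwd3-205, where it is coding sequence that ends 386 bases before the end of the coding sequence. Other GENCODE transcripts of the gene annotate the same bases as UTR, the table lists the peak as both exon and 3'UTR, and only short sites of it are printed. BRWD3 carries WD repeats and bromodomains, which bind acetylated histone tails, and the human gene is known for X-linked intellectual disability. The sites shown are a pair of adjacent TGACT matches and a pair in the 3' part of the peak.
Brwd3 site at chrX:108743546-108743574: tacctctggctcTGACTcTGACTctgaat
Brwd3 site at chrX:108743443-108743471: aggAAACTcagaAAACAacacaccaatgg

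The Ehmt2 peak (chr17:34898707-34899228, plus strand) has another position and another base composition. Ehmt2 encodes G9a, which adds 1 or 2 methyl groups to lysine 9 of histone H3, together with its partner GLP. Its peak is 522 bases wide, the widest of the 529, and straddles the start codon: 267 of its bases lie before the A of the start codon at position 34898974, and 255 are coding, codons 1 to 85 of 1263 in transcript Ehmt2-201. Of the 522 bases, 247 are in no GENCODE M21 exon of Ehmt2 and 252 in no RefSeq exon. GENCODE M21 starts the gene at position 34898469, so the whole peak lies inside the annotated gene. The peak contains all 300 bases of a RefSeq promoter window of Ehmt2 (250 bases before to 50 bases after a transcript start, GRCm38.p6), which is printed because IP reads were counted over it.
Ehmt2 promoter window, chr17:34898720-34899019: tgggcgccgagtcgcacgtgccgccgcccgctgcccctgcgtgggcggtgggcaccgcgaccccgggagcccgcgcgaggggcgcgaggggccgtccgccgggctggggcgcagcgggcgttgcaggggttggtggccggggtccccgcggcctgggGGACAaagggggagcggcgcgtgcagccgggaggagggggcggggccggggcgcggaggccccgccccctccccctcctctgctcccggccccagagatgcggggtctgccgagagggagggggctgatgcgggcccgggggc
Ehmt2 coding site, chr17:34899140-34899168: tgcctgccgggcTGACCggccccccggtt

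The Arid4b peak held 7 DRACH matches, the Brwd3 peak 10, the peak named Chd1 6 and the wide Ehmt2 peak 2. Per 100 bases this was 2.89, 4.90, 3.00 and 0.38 matches, against a median of 1 over all listed peaks, 2.54 over the 112 peaks lower with age and 0.97 over the 417 higher ones. Arid4b and the peak named Chd1 were thus close to the median of lower peaks, and 514 of the 529 peaks had fewer per 100 bases than Brwd3 and 85 had fewer than Ehmt2. At least 1 match was present in 450 of the listed peaks (85.1%) and in 84.4% of those of 200 to 250 bases, so the presence of a match does not set the 4 peaks apart. Of the RefSeq promoter windows of 300 bases, 98.4% held a match, with a median of 5 against the 1 in the Ehmt2 window. Of the 2 matches in the Ehmt2 peak, the one beginning GGAC, at position 34898879, lies outside the annotated exons, and the other, at position 34899154, lies in coding sequence. On the other strand the peaks held 4, 3, 3 and 4 matches in the order Arid4b, Brwd3, Chd1 and Ehmt2.

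**Figure D1:**
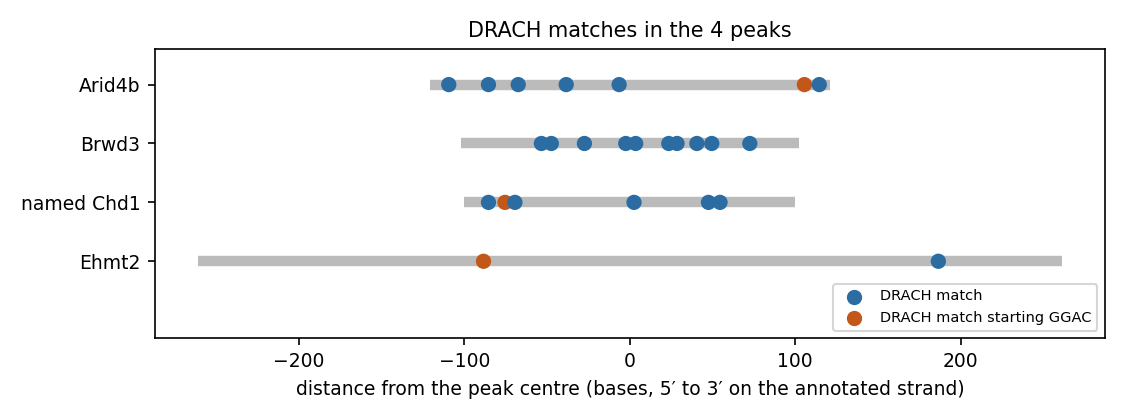
Positions of DRACH matches (points) along the 4 peaks (grey bars), as distance from the peak centre in bases on the annotated strand; orange points mark matches that begin GGAC. The Arid4b, Brwd3 and Chd1-named peaks hold 7, 10 and 6 matches over 242, 204 and 200 bases, and the Ehmt2 peak holds 2 over 522 bases.

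The levels below are IP counts per 1000000 reads (CPM) of a library size recovered from the deposited counts and average abundances, since the table holds only listed peaks. The recovered sizes ranged from 12339600 to 15319500 reads in the young libraries and from 6390380 to 12859000 in the aged ones, and the listed peaks held 322474 to 701150 reads per library. One library of 6 stood apart: young 2 lay nearer to the aged mean than young 1 and 3 did at 388 of the 417 peaks that were higher with age and at 86 of the 112 that were lower. Values without it are therefore given for the 4 peaks, their ratios and the counts. In the edgeR quasi-likelihood test without young 2, 508 of the 529 listed peaks (96.0%) passed an adjusted p of 0.05 and the median log2 fold change of all peaks was 0.88, so a peak that passed in that setting shared this with nearly the whole table. The median coefficient of variation of a listed peak was 38.8% among young libraries and 12.9% among aged ones.

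The Arid4b peak was lower in the aged hippocampus. Young libraries 1 to 3 gave 99.4, 67.0 and 107.2 CPM (1467, 827 and 1643 reads), whereas aged libraries 1 to 3 gave 45.1, 50.1 and 51.2 CPM (580, 320 and 463 reads). All aged libraries were below all young ones, with young 2 the lowest of the young. The means were 91.2 ± 21.3 CPM in young and 48.8 ± 3.26 CPM in aged mice (SD, n = 3 each), 1.87-fold higher in young. The log2 fold change, aged over young, was -0.90 with a standard error of 0.34 (95% interval -1.57 to -0.24), and it did not pass edgeR's quasi-likelihood test after Benjamini-Hochberg adjustment over all 529 peaks (adjusted p = 0.184). Without young 2 it was -1.08 with an adjusted p of 4.5e-04 in the same edgeR test, a setting in which 508 of the 529 peaks passed.

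The Brwd3 peak was also lower in aged mice. Its levels were 34.8, 23.6 and 49.2 CPM for young libraries 1 to 3, compared with 17.7, 19.6 and 22.5 CPM for aged libraries 1 to 3. The groups did not overlap, but young 2 (23.6) and aged 3 (22.5) were close. The means were 35.8 ± 12.8 CPM in young and 19.9 ± 2.43 CPM in aged mice (SD, n = 3 each), 1.80-fold higher in young. The log2 fold change was -0.85 with a standard error of 0.33 (95% interval -1.51 to -0.19; edgeR quasi-likelihood adjusted p = 0.184). The read counts behind it ran from 125 in aged 2 to 753 in young 3. Without young 2 the log2 fold change was -1.08 (edgeR adjusted p = 6.3e-04, with 508 of 529 peaks passing), and without young 3 it was -0.55 (edgeR adjusted p = 0.351).

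The peak named Chd1, in Riok2, had the smallest coefficient of variation of the 4 among young mice (10.5%). The 3 young mice had 43.7, 44.9 and 52.8 CPM (libraries 1 to 3), and the 3 aged mice had 30.5, 23.3 and 28.0 CPM. The aged values were all below the young ones, and here young 2 lay between the other young libraries. The means were 47.1 ± 4.95 CPM in young and 27.3 ± 3.64 CPM in aged mice (SD, n = 3 each), 1.73-fold higher in young. The log2 fold change was -0.79 with a standard error of 0.30 (95% interval -1.38 to -0.19; edgeR quasi-likelihood adjusted p = 0.184). Without young 2 it was -0.82 (edgeR adjusted p = 0.0028, with 508 of 529 peaks passing), so its size hardly moved while its adjusted p did.

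The Ehmt2 peak was higher in the aged mean, with overlap between the ages. Its level was 36.9 CPM in young 1, 94.7 in young 2 and 38.2 in young 3, while aged libraries 1 to 3 had 80.0, 79.8 and 99.0 CPM. Young 1 and 3 were below all aged libraries, and young 2 was above 2 of the 3. The means were 56.6 ± 33.04 CPM in young and 86.3 ± 11.0 CPM in aged mice (SD, n = 3 each), 1.53-fold higher in aged. The log2 fold change was 0.61 with a standard error of 0.40 (95% interval -0.17 to 1.39), and it did not pass the edgeR quasi-likelihood test (adjusted p = 0.256). Without young 2 it was 1.20 (edgeR adjusted p = 3.4e-04, with 508 of 529 peaks passing), which was 0.32 above the median of all peaks in that setting.

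**Figure D2:**
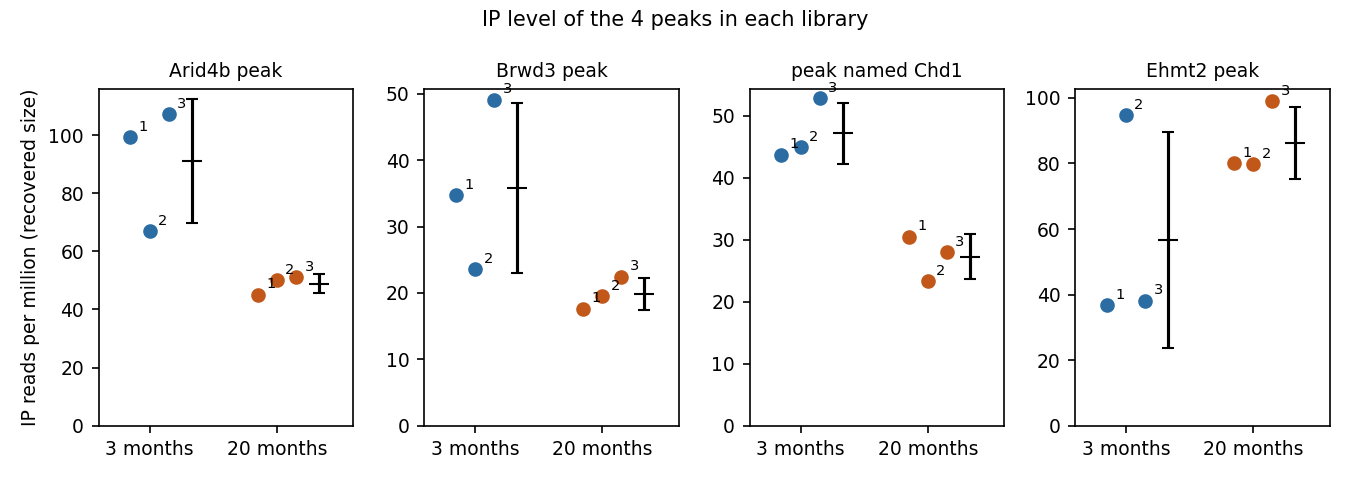
IP counts per 1000000 reads (CPM) of recovered library size for the 4 peaks in each library (points, numbered by replicate) at 3 and 20 months, with the mean and SD of 3 libraries beside them (bar and whiskers); each panel has its own axis from 0. Aged libraries lie below all young ones at Arid4b, Brwd3 and the peak named Chd1, and young 2 lies among the aged libraries at Ehmt2.

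None of the 4 peaks passed an adjusted p of 0.05. Over all 529 peaks of the fit, 5 were called higher with age (0.945%) and 0 lower (0%). Without young 2 the same edgeR test called 404 higher (76.4%) and 104 lower (19.7%). At an unadjusted edgeR p under 0.05, 3 of the 4 peaks were lower, where 94 of all peaks were (17.8%), and none was higher, where 42 were (7.94%). All aged libraries were below all young ones at 3 of the 4 peaks, against 88 of all listed peaks (16.6%), and above them at none, against 106 (20.0%). Only the 112 peaks that were lower with age can be among the 94 and the 88. Most of those 112 met each criterion, as the 3 lower members did, so this does not set the members apart from other lower peaks. The table holds peaks that the authors selected as differential on these libraries, so the direction of each peak was part of the selection and these p-values are not independent evidence of it.

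The size of each change also depended on how libraries were scaled, and 2 of the 3 aged libraries had smaller recovered sizes than any young one. The median log2 fold change over all 529 peaks was 0.49 with the recovered sizes, 0.14 with column totals, 0.03 with TMM and 0.02 with DESeq2 size factors. Relative to that median, Arid4b lay at -1.40, Brwd3 at -1.34 and the peak named Chd1 at -1.28 with the recovered sizes, while Ehmt2 lay at 0.12. With TMM the same differences from the median were -1.59, -1.57, -1.43 and 0.15. TMM scaling gave adjusted p values, in the edgeR quasi-likelihood test, of 0.0369 for Arid4b, 0.0454 for Brwd3 and 0.0337 for the peak named Chd1, and called 87 peaks lower (16.4%) and 6 higher (1.13%) in all. The Ehmt2 peak passed under no scaling. Under all 4 scalings the aged libraries stayed below all young ones at Arid4b, Brwd3 and the peak named Chd1, and Ehmt2 overlapped between the ages.

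**Figure D3:**
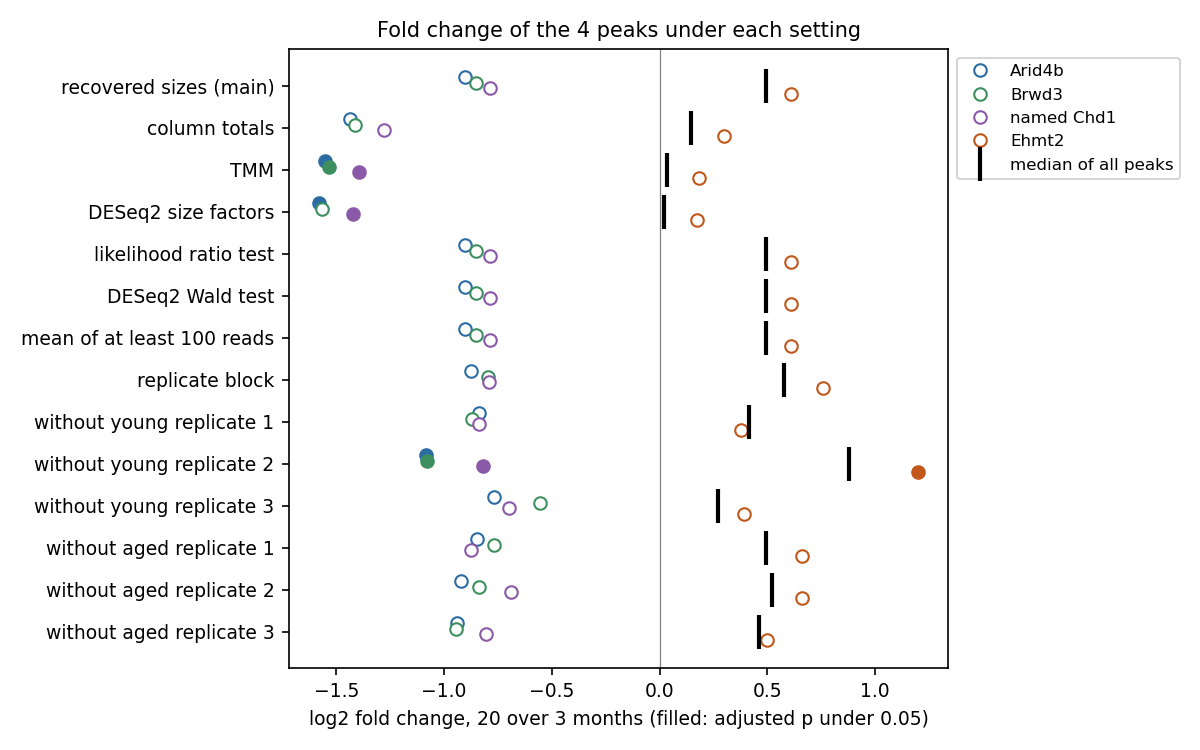
Log2 fold change, 20 over 3 months, of the 4 peaks (circles) and the median of all listed peaks (black bars) under the main setting and 13 alternatives; filled circles have an adjusted p under 0.05. No peak changed sign, and all 4 circles are filled in the setting without young replicate 2, where 508 of the 529 listed peaks passed.

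The ratio of 2 peaks within one library does not depend on the library size, and it was compared for the 6 pairs of peaks. Ehmt2 over Arid4b had log2 ratios of -1.43, 0.50 and -1.49 at 3 months, in replicate order, against 0.83, 0.67 and 0.95 at 20 months. The groups did not overlap, although young 2 was close to the aged values. The difference of the means, aged minus young, was 1.62 on the log2 scale. It was 1.54 for Ehmt2 over Brwd3 and 1.54 for Ehmt2 over the peak named Chd1, again with no overlap, although for Ehmt2 over Brwd3 the gap was narrow, with 2.01 in young 2 and 2.03 in aged 2. Without young 2 the 3 differences were 2.28, 2.26 and 2.02, and without young 3 they were 1.28, 1.07 and 1.25. With all libraries, each of these gave a two-sided exact permutation p of 0.1, the smallest that 3 against 3 libraries allow, and 0.2 after Benjamini-Hochberg adjustment over the 6 pairs (exact permutation test). Ehmt2 was listed as higher and the other 3 peaks as lower on these same libraries, and this listing set the sign of the differences. They are therefore not independent evidence about Ehmt2. How often other pairs of a higher and a lower listed peak fail to overlap was not counted.

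Among the 3 peaks that were lower with age, the mean ratios differed little between the ages. Aged minus young, Brwd3 over Arid4b differed by 0.08, the peak named Chd1 over Arid4b by 0.08 and the peak named Chd1 over Brwd3 by -0.0012 on the log2 scale (exact permutation p of 0.6, 0.7 and 1). The ratios within an age varied by more than these differences: Brwd3 over Arid4b had an SD of 0.22 among young and 0.10 among aged libraries (n = 3 each), and the peak named Chd1 over Brwd3 had 0.43 and 0.29. These p-values do not show that the peaks changed alike.

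**Figure D4:**
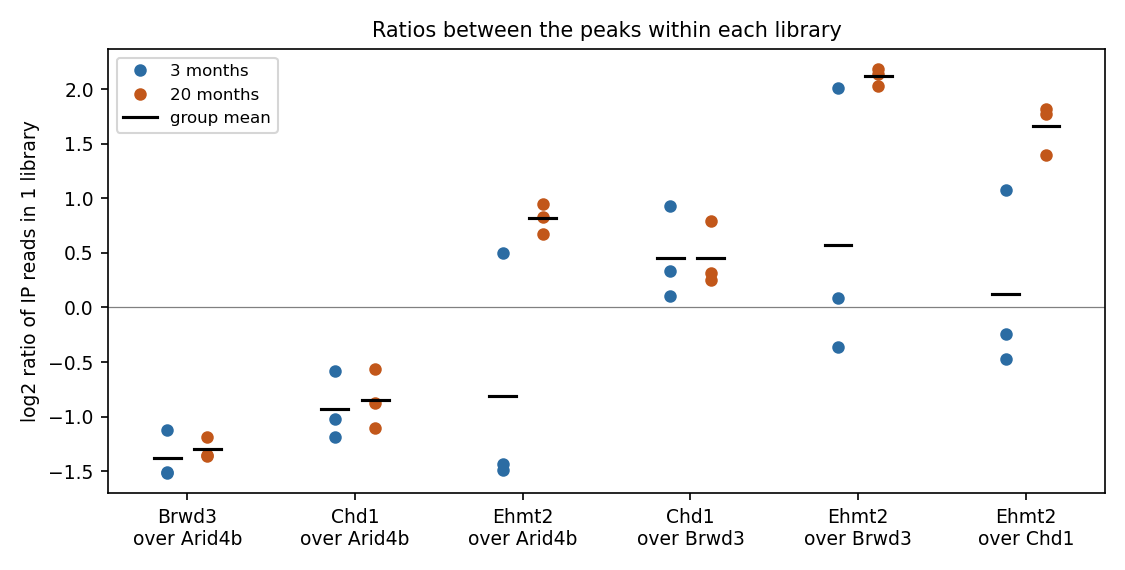
Log2 ratio of IP reads between pairs of peaks within each library (points; blue 3 months, orange 20 months; black bars, group means of 3 libraries), where Chd1 stands for the peak named Chd1. The ratios with Ehmt2 on top are 1.54 to 1.62 higher in aged libraries with no overlap, and the other pairs overlap. The listing of Ehmt2 in the direction opposite to the other peaks set the sign of the former.

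Per 100 bases of peak, Arid4b was the highest in young mice with a mean level of 37.7 CPM, followed by the peak named Chd1 with 23.6, Brwd3 with 17.6 and Ehmt2 with 10.8. In aged mice the order of mean levels per 100 bases was Arid4b with 20.2 CPM, Ehmt2 with 16.5, the peak named Chd1 with 13.6 and Brwd3 with 9.75. Ehmt2 stood last in the young and second in the aged order of means. In young 2, however, Ehmt2 was above Brwd3 per base, with 94.7 CPM over 522 bases against 23.6 CPM over 204 bases. The width of the Ehmt2 peak also includes 247 bases in no GENCODE M21 exon of the gene, while the other 3 peaks lie wholly in exons. Without young 2 the young mean levels per 100 bases were 42.7 CPM for Arid4b, 24.1 for the peak named Chd1, 20.6 for Brwd3 and 7.19 for Ehmt2, in the same order. No order was tested, and these levels are IP reads not set against input, so they carry transcript abundance with them.

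Base composition differed along with the direction. G and C made up 36.4% of the Arid4b peak, 43.1% of the Brwd3 peak and 44.5% of the peak named Chd1, against 81.2% of the Ehmt2 peak. Over all listed peaks the median was 45.5% for the 112 lower and 73.5% for the 417 higher peaks, and the members lay on the side of their own direction. Arid4b was among the poorest in G and C, with 8 of the 529 peaks below it, and 477 peaks were below Ehmt2. The Ehmt2 peak had 61 CpG dinucleotides, or 11.7 per 100 bases, and the Arid4b peak had 1. Peaks annotated as exon alone, as at Arid4b and the peak named Chd1, made up 67.9% of lower and 26.4% of higher peaks, and peaks with a start codon, as at Ehmt2, 2.68% and 27.3%. The part of base composition in the fold changes was not tested.

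**Figure D5:**
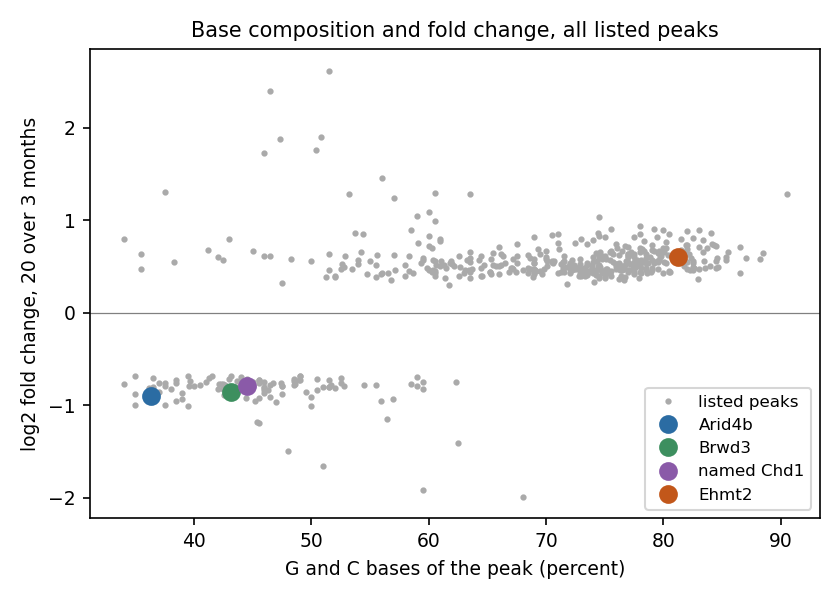
Log2 fold change, 20 over 3 months, against the percent of G and C bases for the 529 listed peaks (grey) and the 4 named peaks (coloured). Arid4b (36.4%), Brwd3 (43.1%) and the peak named Chd1 (44.5%) lie among the lower, G and C poor peaks, and Ehmt2 (81.2%) among the higher, G and C rich ones.

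Other genes of the same kinds were counted from 6 lists of chromatin genes with 160 names, of which 26 were in the table with 28 peaks. Of these peaks 19 were higher and 9 lower in aged mice, where 417 and 112 of all 529 were. None passed the adjusted edgeR test, and 10 of the 28 had an unadjusted p under 0.05, where 136 of all listed peaks had (25.7%). The counts include the peak named Chd1, which lies in Riok2 and does not measure a chromatin gene. It is counted in the 26 names, the 28 peaks, the 9 lower ones and the 10. Without young 2 all 28 passed the adjusted edgeR test, as 508 of all 529 did, and none changed sign. Their median log2 fold change was 0.47, against 0.49 over all listed peaks. TMM or DESeq2 size factors turned the sign of 8 of the 19 higher peaks and of none of the 9 lower ones, and over the whole table they turned 120 of the 417 higher peaks and none of the 112 lower ones.

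The histone H3 lysine 9 methylation list, to which Ehmt2 belongs, had 4 of 20 genes in the table. The other 3 were lower in aged mice, where 112 of all 529 listed peaks were. The list was chosen with earlier results of these data known, so this contrast with Ehmt2 is not independent evidence. Setdb1, another lysine 9 methyltransferase, had a log2 fold change of -0.80 (SE 0.30). Atf7ip, the partner that stabilises SETDB1, had -0.72 (SE 0.32), and Zfp644, a zinc finger partner of G9a and GLP, had -0.77 (SE 0.35). All 3 had an adjusted p of 0.184 in the edgeR quasi-likelihood test and are annotated as exon alone. The median of the list was -0.74, and all 4 kept their sign under each scaling. The ages overlapped at Zfp644, with 43.9 CPM in young 2 and 45.8 CPM in aged 3, and at Ehmt2.

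The SIN3 and histone deacetylase list had 4 of 20 genes, with Arid4b the 1 lower. Sap30l, a SIN3 subunit, had a log2 fold change of 0.74 (SE 0.39), Ing1, a reader of methylated histone H3, 0.53 (SE 0.37), and Phf12, a PHD finger co-repressor, 0.43 (SE 0.36), but Phf12 lay on the other side of 0 under TMM and under DESeq2 size factors. The remodeller list had 5 of 37 genes and 6 peaks, 5 higher and 1 lower, and the lower one was the peak named Chd1 that lies in Riok2. Bcl7c, a SWI/SNF subunit, had 0.90 (SE 0.34) and 0.39 (SE 0.43) at its peaks. Mbd2, a methyl-CpG binder found in NuRD, had 0.66 (SE 0.34), and Ino80b, of the INO80 complex, 0.51 (SE 0.34). Apart from that peak, no remodeller of the list was lower with the recovered sizes, but Mbd3 and the second Bcl7c peak changed sign under TMM and under DESeq2 size factors.

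The bromodomain and acetylation list had 6 of 29 genes and 7 peaks, 4 higher and 3 lower, and 3 of the 4 higher ones changed sign under TMM or DESeq2 size factors. Beside Brwd3, the lower ones were Brd1, a bromodomain and PHD finger protein of a histone acetyltransferase complex, with -0.78 (SE 0.31), and Zzz3, a subunit of the ATAC acetyltransferase complex, with -0.73 (SE 0.32). Msl2, a subunit of the MSL acetyltransferase complex, had 0.82 (SE 0.41). The 3 higher peaks that changed sign were those of Ep300, with 0.56 (SE 0.36) and 0.47 (SE 0.32), and Sirt7, with 0.40 (SE 0.38). The list of other methyltransferases and demethylases had 3 of 31 genes, Prmt8, Kmt2d and Kdm2a, with 0.64, 0.49 and 0.47, and the signs of Kmt2d and Kdm2a turned with at least 1 of these scalings. The Polycomb and histone H2A deubiquitinase list had 4 of 23 genes. Mysm1, which removes ubiquitin from histone H2A, had -0.79 (SE 0.33), and the Polycomb genes Bmi1 and Aebp2 had 0.65 and 0.60. Bap1, the remaining gene of that list, was higher, with 0.44 (SE 0.46). None of the peaks in this paragraph passed the adjusted edgeR test.

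The peaks whose pattern over the 6 libraries was most like each member were found by the root mean square distance of log2 CPM after centring each peak on its own mean. For Arid4b they were Zfp952, Usp9x and Ahctf1 at 0.075, 0.083 and 0.090, against a median distance of 0.92 to all listed peaks. For Brwd3 they were N4bp1, Usp9x and Nap1l2 at 0.070, 0.075 and 0.11, and Usp9x was thus near both. For the peak named Chd1 they were Sfr1, Map2 and Setdb1 at 0.12, 0.12 and 0.13. For Ehmt2 they were Acbd6, Rnf149 and the peak shared by A230103J11Rik and Tnpo2 at 0.0996, 0.12 and 0.15, with a median distance of 0.32. Arid4b and Brwd3 were 0.15 apart. Ehmt2 was 1.05, 1.06 and 0.92 from Arid4b, Brwd3 and the peak named Chd1. Since 417 of the 529 listed peaks were higher with age, the medians for the lower members are mostly distances to peaks of the other direction. A median over the lower peaks alone is not given. The nearest peaks were picked as the smallest distances, and the direction of each peak was part of the listing on these libraries. These distances are therefore not independent evidence of a shared or separate change.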

How the data were processed

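MeRIP-seq IP libraries of 3 young and 3 aged mice were analysed; the input libraries were not used here. Per the labels and the study's methods, the authors trimmed reads, aligned them to mm10, called peaks over input, recentred them on their summits and counted reads per peak. Tools credited to the submitters' processing notes are STAR 2.5.3a, Bowtie2 2.2.7, Subread 1.6.4, Trimmomatic 0.36, bedtools 2.25.0, MACS2 2.2.1 and SAMtools 1.3. The deposited read counts are whole numbers and not normalised. The deposited log2 average abundance comes from the authors' edgeR fit. A further 4 deposited columns hold the authors' fold changes, likelihood ratios, p-values and adjusted p-values and were not used. The table lists only peaks the authors selected as differential. For that selection the study's methods name an edgeR likelihood ratio test, with removal of unwanted variation (RUV) as a further option. No RUV step was run here, so the counts of peaks called here do not repeat the authors' analysis.

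Library sizes were recovered by least squares on edgeR's average abundance from the deposited counts and the abundance column alone (median residual 0.0045 log2). They depend on the authors' scaling. Rows were reduced to 529 unique peaks, all tested in one edgeR quasi-likelihood fit (edgeR 4.0.16, R 4.3.3; two-sided, no covariate, Benjamini-Hochberg, threshold 0.05) with no count filter. Standard errors are the log2 fold change over the root of the F statistic, and 95% intervals use a normal multiplier of 1.96, so they are approximate. The script was tested on simulated data with the same dispersion at every peak and no outlying library, so that test does not cover a library like young 2. Alternatives were column totals, TMM, DESeq2 size factors (DESeq2 1.42.0), the likelihood ratio and Wald tests, a mean of at least 100 reads (508 peaks), a replicate block, 0.5 added reads for ratios, and leaving out each library.

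The table does not say whether starts count from 0 or 1. They were read as counting from 0, which makes the narrowest peaks 200 bases, and are printed counting from 1; the other reading left the number of DRACH matches in the 4 peaks as it was. Sequence and annotation came from GRCm38.p6 (RefSeq) and GENCODE M21. RefSeq promoter windows matched Ehmt2 (2 windows), Arid4b, Brwd3 and Riok2. The counting is not stated to use strand. Genes named beyond the 4 were, for each list, up to 3 with the smallest p, and for each peak the 3 nearest in pattern. Mbd3, and the Bcl7c peak beyond that number, were named after their values were seen, for their change of sign. Ep300, Sirt7 and Bap1 were also named after their values were seen, to complete their lists. The genes, lists and scaling were chosen with earlier results of these data known, and the size recovery had been tried on a supplementary copy of the table.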

Additional observations from a re-analysis of the deposited data

How the results depend on the processing

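In the 13 alternatives run for each of the 4 peaks no log2 fold change turned its sign. With TMM the log2 fold changes were -1.55 for Arid4b, -1.53 for Brwd3 and -1.40 for the peak named Chd1, and all passed; with DESeq2 size factors Arid4b (-1.58) and the peak named Chd1 (-1.42) passed at an adjusted p of 0.0494 and Brwd3 did not (0.0599). These scalings centre the listed peaks near 0, so lower peaks move further from it. Leaving out one library gave -1.08 to -0.77 for Arid4b, -1.08 to -0.55 for Brwd3, -0.88 to -0.69 for the peak named Chd1 and 0.38 to 1.20 for Ehmt2, and each passed only without young replicate 2.

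Peaks called higher numbered 5, and 11 by the likelihood ratio and 11 by the DESeq2 Wald test. Peaks called lower numbered 0 (94 at an unadjusted p under 0.05), and 3 with column totals, 87 with TMM, 45 with DESeq2 size factors, 2 by the likelihood ratio test, 3 by the Wald test and 1 with the replicate block. Leaving out one library gave 4 to 404 higher and 0 to 104 lower, the highest without young replicate 2. The cause was not tested.

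Same-numbered young and aged libraries had correlations of -0.19, -0.035 and -0.026 in their deviations from the group means, so the numbers were not taken to pair mice. With the replicate block the log2 fold changes were -0.88, -0.80, -0.79 and 0.76 in the order Arid4b, Brwd3, Chd1 and Ehmt2 (adjusted p = 0.254 each, edgeR), and no call on the 4 peaks changed. The paired differences of the ratios with Ehmt2 on top had an exact p of 0.25, the smallest that 3 pairs allow.

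The aged minus young difference in the mean log2 ratio was also recalculated with one library left out. For the peak named Chd1 over Arid4b this difference ran from -0.059 to 0.26, with -0.047 without young replicate 1 and -0.059 without aged replicate 1. For the peak named Chd1 over Brwd3 the difference ran from -0.18 to 0.24. It was 0.24 without young replicate 2, 0.099 without aged replicate 2 and 0.067 without aged replicate 3. The Brwd3 peak in aged 2 rested on 125 reads, the fewest behind any value of the 4 peaks.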
